A study of Mus musculus with 6 samples.

Results

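The cytosolic ribosomal protein genes were taken as the entries of the authors' gene table whose symbol is Rpl or Rps followed by a number and at most 1 letter, together with Rplp0, Rplp1, Rplp2 and Rpsa. This choice uses names and no measured value, and it found 80 of 22381 genes, 48 of the large (60S) and 32 of the small (40S) ribosomal subunit. RNA was sequenced from LSK cells, bone marrow cells without lineage markers but with Sca-1 and c-Kit on their surface, a population in which blood stem cells and multipotent progenitors are found. The labels give 3 samples from Tgif1-/- mice, called KO-labelled here, and 3 from Tgif1+/+ mice, called WT-labelled. All mice were C57BL/6, aged 8 to 12 weeks, and about 200 ng of RNA was used. The product of Tgif1 is a homeodomain protein known to repress transcription, among other places in the TGF-beta pathway. The labels do not say whether replicates are from different mice or technical, or where in the gene the Tgif1 allele is disrupted. Tgif1 itself was listed at 88.6 FPKM in KO-labelled cells and 71.5 FPKM in WT-labelled cells, and its test failed. The level of the targeted gene therefore did not check the labels, and every direction below is one between groups named only by them.

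Each ribosome joins a large subunit, which forms peptide bonds, to a small subunit, which reads the mRNA, and each protein is needed in a single copy apart from the stalk proteins. In mammals most ribosomal protein mRNAs begin with a 5′ terminal oligopyrimidine (TOP) tract, through which mTOR and the RNA-binding protein Larp1 control their translation together. Blood cells are known to be sensitive to ribosomal protein dose. Inherited loss of 1 copy of several of these genes causes Diamond-Blackfan anaemia in people, and adult mouse blood stem cells are known to make protein slowly.

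The promoters of 4 members are shown as examples of windows that hold the pyrimidine letters CTTTCC near the start site, which not all members have. The sequences are RefSeq promoter windows on GRCm38.p6, 5′ to 3′ on the gene's strand, from base -60 to base 20 around the start site, and capitals mark CTTTCC. Rpl13a lies at chr7:45128726-45128805 on the minus strand, Rpl35 at chr2:39005112-39005191 on the minus strand, Rps10 at chr17:27635225-27635304 on the minus strand and Rpl18 at chr7:45718011-45718090 on the plus strand.
Rpl13a: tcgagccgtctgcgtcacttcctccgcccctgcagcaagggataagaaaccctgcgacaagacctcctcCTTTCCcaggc
Rpl35: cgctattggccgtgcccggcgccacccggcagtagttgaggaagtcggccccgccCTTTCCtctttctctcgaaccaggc
Rps10: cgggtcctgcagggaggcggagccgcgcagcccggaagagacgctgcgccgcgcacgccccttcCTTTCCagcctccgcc
Rpl18: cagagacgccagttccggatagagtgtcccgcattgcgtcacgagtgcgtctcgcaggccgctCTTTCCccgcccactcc

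Counted over the bases from -50 to 50 around the start, 22 of 71 RefSeq windows of 59 members held CTTTCC on the gene's strand (31.0%), beside 1541 of 32851 windows of all genes (4.69%). The TATA-like letters TATAA stood in 9 member windows (12.7%) and in 6.81% of all windows. The ETS-type letters CCGGAAGT, searched on both strands, stood in 6 member windows (8.45%) and in 2.46% of all windows. The CGCG element bound by the factor Banp, also searched on both strands, stood in 4 member windows (5.63%) and in 0.262% of all windows. The letters were counted separately, so matches of different motifs may overlap, and several windows can belong to 1 gene. Among expressed members, the 18 with CTTTCC in a window had a median log2 ratio of 0.017 and the 38 with a window lacking it had a median of 0.034, a difference that was not tested.

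Ribosomal protein mRNAs were among the most abundant in these cells. FPKM scales fragment counts by transcript length and by the mapped total of the library, so levels can be set side by side between genes. Of the 80 members, 77 had a mean of at least 1 FPKM over the groups, and 47 of them stood among the 100 highest genes of the table. All members together held 17.8% of the summed FPKM in KO-labelled cells and 17.3% in WT-labelled cells. Large subunit genes summed to 88164 FPKM in KO-labelled cells and 84279 FPKM in WT-labelled cells. Small subunit genes summed to 78883 FPKM in KO-labelled cells and 75708 FPKM in WT-labelled cells. The large sum over the small was 1.12 in KO-labelled cells and 1.11 in WT-labelled cells. In RNA from a bulk population, fewer cells of a type and less RNA per cell cannot be told apart.

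**Figure D1:**
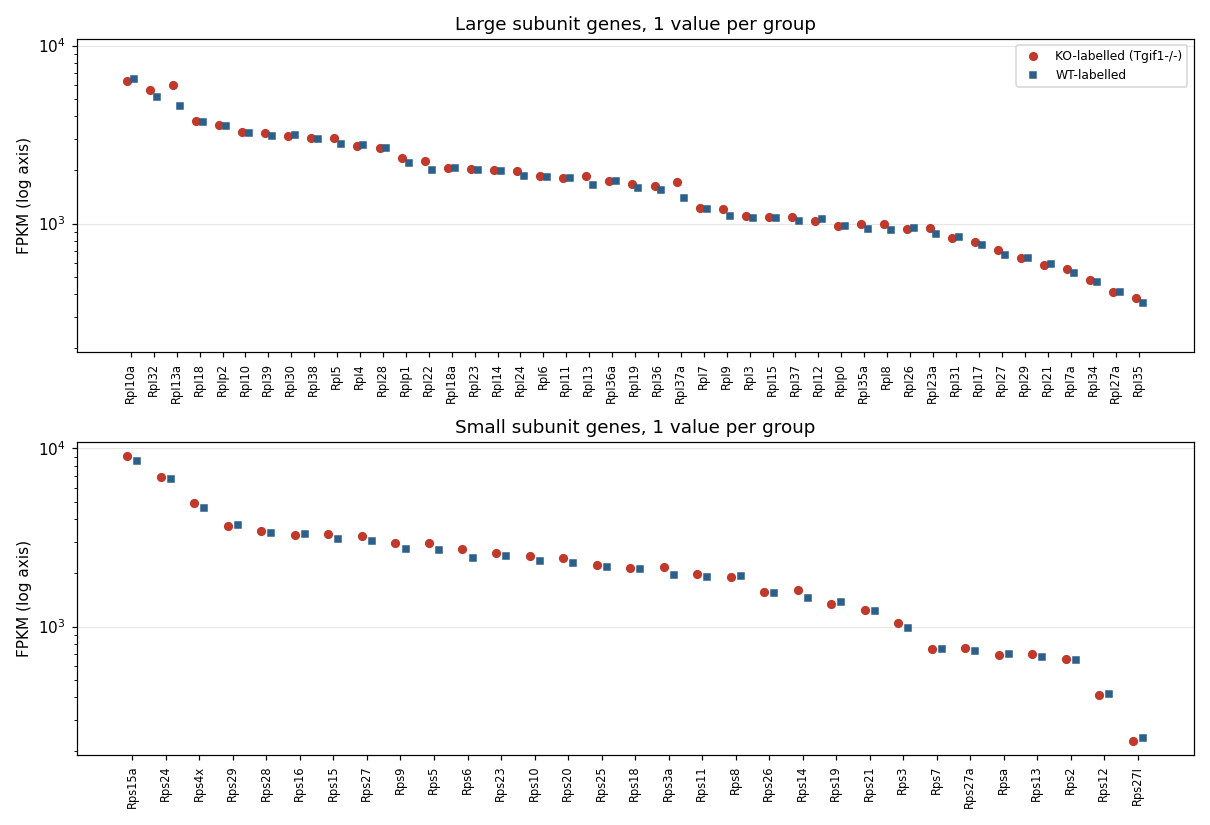
FPKM (log axis) of 76 of the 77 expressed ribosomal protein genes, 45 of the large subunit above and 31 of the small subunit below, ordered by mean level, with 1 value per group and no error bar because no value per sample is given. The points of a gene for KO-labelled and WT-labelled cells nearly coincide for most members, and Rpl13a and Rpl37a are the large subunit genes with the widest gap.

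Levels of single members spread far more than the groups did. Rps15a, a small subunit gene, was the highest at 9071 FPKM in KO-labelled cells and 8525 FPKM in WT-labelled cells. Also high in its subunit were Rps24 at 6869 FPKM in KO-labelled and 6773 FPKM in WT-labelled cells, Rps4x at 4934 FPKM in KO-labelled and 4633 FPKM in WT-labelled cells, and Rps29 at 3679 FPKM in KO-labelled and 3697 FPKM in WT-labelled cells. Rps4x is the X-linked form of its protein. The highest large subunit genes were Rpl10a, Rpl32, Rpl13a, Rpl18 and Rplp2. Between the highest and the lowest expressed member the mean level spanned 17.3-fold in the large subunit, down to Rpl35, and 37.9-fold in the small subunit, down to Rps27l. Across the 77 genes the mean level had a Spearman rho of -0.10 with coding length in GENCODE M21, which is a description over genes that share the same libraries. FPKM divides by transcript length and splits reads among near-identical copies, so this spread is one of assigned FPKM and not of protein demand.

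No ribosomal protein gene passed the authors' test for a difference between the groups. A gene is called here where Cuffdiff marked it as tested and its deposited q-value, adjusted by Benjamini-Hochberg over all tested genes, was at or under 0.05. Of 52 tested members in the authors' deposited table, 0 were called and 0 had an unadjusted Cuffdiff p under 0.05, while 71 of 10730 tested genes were called (0.662%) and 580 had such a p (5.41%). Another 26 members had a failed test, which leaves FPKM values without an error, and 2 had too few reads to test. A count of 0 in 52 genes lies near the background of 0.662%.

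The values themselves lay slightly higher in KO-labelled cells for most members. The FPKM was higher there for 60 of 77 expressed members and lower for 17 (77.9% higher), beside 5183 of 12264 genes whose mean reached 1 FPKM (42.3%). The median log2 ratio was 0.034 over the members, and -0.029 over all those genes. In the large subunit 36 of 45 genes had the higher value, with a median of 0.026, and in the small subunit 24 of 32, with a median of 0.042. The difference between the subunits was not tested. Among 600 other genes whose mean reached 200 FPKM, 52.5% had the higher value, with a median of 0.0065. These 600 include near-identical copies of members, described below, and without them 50.4% of 534 were higher, with a median of 0.00079. The 600 were lower in level, with a median of 343 FPKM in KO-labelled cells, where the expressed members had 1844 FPKM. The split depended on the scale, since rescaling both groups to the same FPKM total lowers every log2 ratio by 0.019. On that scale 42 of 77 members were higher (54.5%), beside 37.0% of all genes, and the large subunit divided 23 to 22. Centred on the median of all genes, 74 of 77 were higher (96.1%).

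The members also lay close to one another. The log2 ratio was within 0.2 of 0 for 75 of 77 members (97.4%), compared with 72.5% of all genes whose mean reached 1 FPKM and 91.7% of the other genes at 200 FPKM or more, and it was within 0.1 for 61. The 2 outside this band were Rpl13a and Rpl37a. Dividing the deposited log2 fold change by the deposited statistic gives the standard error the authors' model used, which is not a spread measured between samples. Over the 51 expressed members that were tested it had a median of 0.207 and ran between 0.0485 for Rplp0 and 0.341 for Rpl4. All 51 of the 95% intervals built from it included 0, all 51 lay within a 2-fold change either way, and 45 lay within 1.5-fold. Their outermost bounds were -0.69 for Rpl4 and 0.72 for Rpl37a. Differences smaller than these intervals were not detectable with this error.

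**Figure D2:**
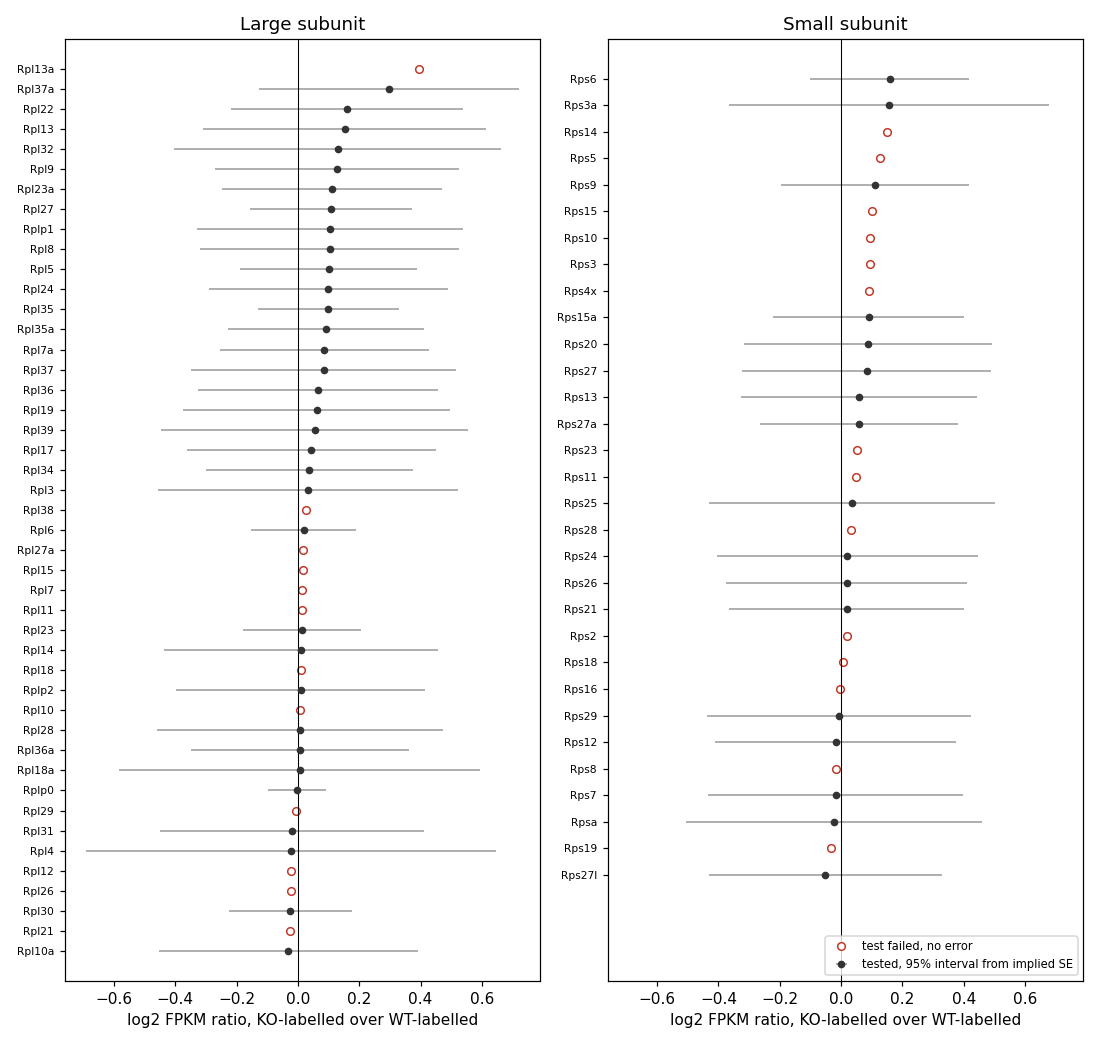
Log2 FPKM ratio of the same 76 expressed ribosomal protein genes, KO-labelled cells over WT-labelled cells, for the large (left) and small (right) subunit. Filled points are tested genes with a 95% interval from the implied standard error, and every interval crosses 0, while open points are the 26 genes whose test failed and which carry no error.

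The 5S particle joins Rpl5 and Rpl11 with 5S rRNA, and when it is not built into a ribosome it binds Mdm2 and stabilises p53. Rpl5 had 3018 FPKM in KO-labelled cells and 2817 FPKM in WT-labelled cells, and its log2 ratio of 0.10 had a model error of 0.15. Rpl11 had 1809.6 FPKM in KO-labelled and 1793 FPKM in WT-labelled cells, and its test failed. For Rpl5 the ratio was smaller than the standard error.

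The stalk proteins draw translation factors that use GTP to the ribosome. Their base protein, Rplp0, had 969 FPKM in KO-labelled cells and 972 FPKM in WT-labelled cells, with the narrowest interval of all members (log2 ratio -0.0035, 95% interval -0.0985 to 0.0916). This interval rests on a model error of 0.0485, where the median over tested expressed members was 0.207. The partners of Rplp0 are Rplp1, with 2346 FPKM in KO-labelled and 2184 FPKM in WT-labelled cells, and Rplp2, with 3560.1 FPKM in KO-labelled and 3539.6 FPKM in WT-labelled cells. Rpl10a, part of the other flexible arm of the large subunit, which guides the leaving tRNA, was the highest large subunit gene at 6334 FPKM in KO-labelled cells and 6477 FPKM in WT-labelled cells. Its log2 ratio of -0.032 was the lowest of its subunit, with a standard error of 0.22.

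Several proteins line the tunnel through which the new chain leaves. Rpl4 had 2725 FPKM in KO-labelled cells and 2767 FPKM in WT-labelled cells, Rpl17 had 784 FPKM in KO-labelled and 761 FPKM in WT-labelled cells, and Rpl39 had 3216 FPKM in KO-labelled and 3097 FPKM in WT-labelled cells. At the tunnel's mouth, where the signal recognition particle docks, Rpl23a had 944 FPKM in KO-labelled and 874 FPKM in WT-labelled cells and Rpl35 had 382 FPKM in KO-labelled and 357 FPKM in WT-labelled cells. Rpl35 was the lowest expressed member of the large subunit and one of the 5 tested members with the smallest p. In the authors' deposited table its Cuffdiff p was 0.404. None of these 5 genes was called, beside 0.662% of all tested genes.

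Rpl13a and Rpl37a had the highest ratios of all expressed members. Rpl13a, known in human monocytes for a second role in silencing inflammatory mRNAs once released from the ribosome, had 6015 FPKM in KO-labelled cells and 4578 FPKM in WT-labelled cells, a log2 ratio of 0.39. Its test failed, so this value has no error. The table quantified it within 1 locus on chromosome 7 together with Flt3l, the ligand of the Flt3 receptor, whose values were 8.49 FPKM in KO-labelled and 5.37 FPKM in WT-labelled cells and whose test also failed. Without Rpl13a the log2 ratio of the large subunit sum was 0.044, against 0.065 with it. Rpl37a, a small zinc-binding protein, had 1716 FPKM in KO-labelled cells and 1398 FPKM in WT-labelled cells. Its log2 ratio was 0.30 with a standard error of 0.22, and its Cuffdiff p of 0.171 in the authors' deposited table was the smallest of the tested members.

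Some large subunit proteins are known for roles in particular tissues. Rpl22, which mouse T cells need to develop, had 2235 FPKM in KO-labelled cells and 2002 FPKM in WT-labelled cells, with a Cuffdiff p of 0.410 in the authors' deposited table. Rpl38, which in mouse embryos favours translation of Hox mRNAs, had 3044 FPKM in KO-labelled and 2989 FPKM in WT-labelled cells, and its test failed. Rpl24, mutated in the belly spot and tail mouse, had 1983 FPKM in KO-labelled and 1851 FPKM in WT-labelled cells, but the identifier of this entry belongs to the neighbouring gene Zbtb11 in GENCODE M21, so what the entry counted is uncertain. Rpl27 had 715 FPKM in KO-labelled and 663 FPKM in WT-labelled cells and a Cuffdiff p of 0.420 in the authors' deposited table. The lowest ratios of the subunit after Rpl10a belonged to Rpl21, at 585 FPKM in KO-labelled cells and 596 FPKM in WT-labelled cells with a failed test, and Rpl30, at 3090.2 FPKM in KO-labelled and 3145 FPKM in WT-labelled cells. The ratios of Rpl10a, Rpl21 and Rpl30 were all within 0.05 of 0 on the log2 scale.

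In the small subunit the highest ratio belonged to Rps6, the protein that S6 kinases phosphorylate downstream of mTOR. Rps6 had 2718 FPKM in KO-labelled cells and 2435 FPKM in WT-labelled cells, a log2 ratio of 0.16 with a standard error of 0.13. Its Cuffdiff p was 0.230 in the authors' deposited table, the second smallest of the tested members. Rps3a followed with 2169 FPKM in KO-labelled and 1947 FPKM in WT-labelled cells and the same ratio to 2 decimals, and a standard error of 0.27. Rps14, which is lost in the human 5q- syndrome, had 1603 FPKM in KO-labelled cells and 1446 FPKM in WT-labelled cells, and its test failed.

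At the opening through which mRNA enters the small subunit, Rps2 had 655 FPKM in KO-labelled cells and 647 FPKM in WT-labelled cells, and Rps3 had 1049 FPKM in KO-labelled and 983 FPKM in WT-labelled cells. Both tests failed. Rps27a is made as a fusion with ubiquitin and had 762 FPKM in KO-labelled and 732 FPKM in WT-labelled cells, with a log2 ratio of 0.058 and a standard error of 0.16. Rpsa, also known as a laminin receptor, had 688 FPKM in KO-labelled cells and 699.6 FPKM in WT-labelled cells. The lowest ratios of the subunit were those of Rps27l and Rps19. Rps27l had 228 FPKM in KO-labelled cells and 236 FPKM in WT-labelled cells, a log2 ratio of -0.051 with a standard error of 0.19.

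Failed tests were common among the expressed members, with 12 of 45 in the large and 14 of 32 in the small subunit. The highest genes among them were Rpl13a, Rps4x, Rpl18, Rps28 and Rps16. Failed small subunit genes had a median log2 ratio of 0.051 and tested ones 0.028, and failed large subunit genes had 0.011 and tested ones 0.060. The test failed for 33.8% of the 77 expressed members, for 35.8% of the 600 other genes at 200 FPKM or more, and for 24.5% of all genes whose mean reached 1 FPKM. With copies of members left out of the 600, it failed for 39.9% of 534. The reason for a failed test was not given in the sources used here.

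A list of 20 members holds genes mutated in Diamond-Blackfan anaemia, a failure of red cell production. Of these, 15 had the higher value in KO-labelled cells and 5 the lower one, where 77.9% of all expressed members and 42.3% of all genes were higher, with a median log2 ratio of 0.020 and a range of -0.032 to 0.13. Tests were made for 13, failed for 7, and 0 had a Cuffdiff p under 0.05 in the authors' deposited table, which is near the background of 5.41%. Rps19, the gene most often mutated in patients, had 1337 FPKM in KO-labelled cells and 1367 FPKM in WT-labelled cells, the lowest ratio of the list, and its test failed. Rpl9 had the highest ratio, with 1209 FPKM in KO-labelled and 1106 FPKM in WT-labelled cells and a standard error of 0.20. Values of Rps7, Rpl26, Rpl31 and Rps29 were also lower in KO-labelled cells, by at most 0.023 on the log2 scale. The other members of the list include Rps10, with 2501 FPKM in KO-labelled and 2342 FPKM in WT-labelled cells and a failed test, and Rpl35a, with 999 FPKM in KO-labelled and 938 FPKM in WT-labelled cells.

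Paralogues known for restricted expression were near 0 in these cells or well below their partners. Rpl3l, the striated muscle form of Rpl3, was listed at 0.0673 FPKM in KO-labelled cells and 0.0789 FPKM in WT-labelled cells, where Rpl3 had 1104 FPKM in KO-labelled and 1079 FPKM in WT-labelled cells. Rpl10l, an intronless copy used in the testis, was listed at 0.0413 FPKM in KO-labelled cells and at 0 in WT-labelled cells. Rpl39l, also a germ cell form, had 0.418 FPKM in KO-labelled and 0.254 FPKM in WT-labelled cells. These 3 are the members below 1 FPKM, and 1 of them, Rpl39l, was tested. Of the broadly expressed pairs, Rps27l, a p53 target, reached 7.09% of Rps27 in KO-labelled cells and 7.78% in WT-labelled cells.

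Related genes whose symbols fall outside the naming rule were set beside their partners. Rpl36al had 1053 FPKM in KO-labelled cells and 1016 FPKM in WT-labelled cells, which is 60.7% of Rpl36a in KO-labelled cells and 58.8% in WT-labelled cells. Rpl22l1, which can replace Rpl22 in mice, had 552 FPKM in KO-labelled and 524 FPKM in WT-labelled cells, which is 24.7% of Rpl22 in KO-labelled cells and 26.2% in WT-labelled cells. Rpl7l1 had 22.3 FPKM in KO-labelled and 20.4 FPKM in WT-labelled cells. The entry Rps4y2, named Rps4l in GENCODE M21, stood at 7.51 FPKM in KO-labelled cells and 3.29 FPKM in WT-labelled cells, a log2 ratio of 1.19 with a standard error of 0.45. In the authors' deposited table its Cuffdiff p was 0.00864 and its q-value 0.399, so it was not called.

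The start of the coding sequence of Rps27, of its near-identical copy Rps27rt and of its paralogue Rps27l is shown because reads from identical stretches cannot be told apart. The sequences are bases 1 to 90 of the coding sequence in GENCODE M21 (GRCm38), 5′ to 3′, from chromosome 3 for Rps27 and chromosome 9 for the other two, and capitals mark bases that differ from Rps27.
Rps27: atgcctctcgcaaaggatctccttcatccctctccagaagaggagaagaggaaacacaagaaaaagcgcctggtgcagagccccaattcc
Rps27rt: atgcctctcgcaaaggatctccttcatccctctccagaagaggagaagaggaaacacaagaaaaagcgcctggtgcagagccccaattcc
Rps27l: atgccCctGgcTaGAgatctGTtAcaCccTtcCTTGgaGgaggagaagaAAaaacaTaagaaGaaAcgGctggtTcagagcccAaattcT

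Rps27l differs from Rps27 at 24 of these 90 bases, and its level stood apart from that of Rps27. Rps27rt, listed as Gm9846, does not differ over the coding sequence, and it was listed at 3205 FPKM in KO-labelled cells and 3020.1 FPKM in WT-labelled cells. Rps27 itself had 3217 FPKM in KO-labelled cells and 3036 FPKM in WT-labelled cells. The log2 ratio was 0.086 for Rps27rt and 0.083 for Rps27. Reads from identical stretches can be assigned to either entry, so the level of each of the pair is uncertain.

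Copies of this kind touched most members. Transcripts of 128 other genes in the table aligned to the coding sequence of 50 members with at least 90% identity over at least 80% of it, and 120 of them are annotated as processed pseudogenes. Their median identity was 97.5%, and 9 were identical over the aligned part. Copies held 5.57% of the summed FPKM in KO-labelled cells and 5.46% in WT-labelled cells. In 17 families, in each group, the copies summed above the gene itself. Rpl31 had 833 FPKM in KO-labelled cells and 845 FPKM in WT-labelled cells, and its 5 copies summed to 5156 FPKM in KO-labelled and 5239 FPKM in WT-labelled cells. Rpl21 had 12 copies, summing to 2206 FPKM in KO-labelled and 2238 FPKM in WT-labelled cells, and Rpl23a had 6, summing to 2834 FPKM in KO-labelled and 2619 FPKM in WT-labelled cells. How far the level of such a gene depends on where reads were placed was not tested.

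Copies whose mean reached 100 FPKM carried nearly the ratio of their genes. Of 126 copies tested by the authors, 0 were called and 0 had a Cuffdiff p under 0.05 in the authors' deposited table, beside 0.662% and 5.41% of all tested genes. Among 89 copies whose mean reached 100 FPKM, the ratio of the copy differed from that of its gene by a median of 0.012 on the log2 scale and by at most 0.081, and 83 lay within 0.05. Over all 128 copies the median difference was 0.016, but some at lower levels lay further off. Gm4825 had a log2 ratio of 1.26 beside 0.11 for Rpl27, at 1.17 FPKM in KO-labelled and 0.490 FPKM in WT-labelled cells. Rpl13a-ps1 had 0.24 beside 0.39 for Rpl13a, at 25.7 FPKM in KO-labelled and 21.7 FPKM in WT-labelled cells. The copy of Rpl37a, Gm4613, had 1002 FPKM in KO-labelled cells and 806 FPKM in WT-labelled cells, a log2 ratio of 0.31. Both copies of Rps6 had ratios of 0.15. Those of Rps3a had 0.16 and 0.17. Since a copy and its gene can share reads, these values are not a second measurement. The widest gap among these 89 belonged to Rpl32-ps, with 253 FPKM in KO-labelled and 244 FPKM in WT-labelled cells and a log2 ratio of 0.049, beside a log2 ratio of 0.13 for Rpl32 at 5637 FPKM in KO-labelled and 5155 FPKM in WT-labelled cells.

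**Figure D3:**
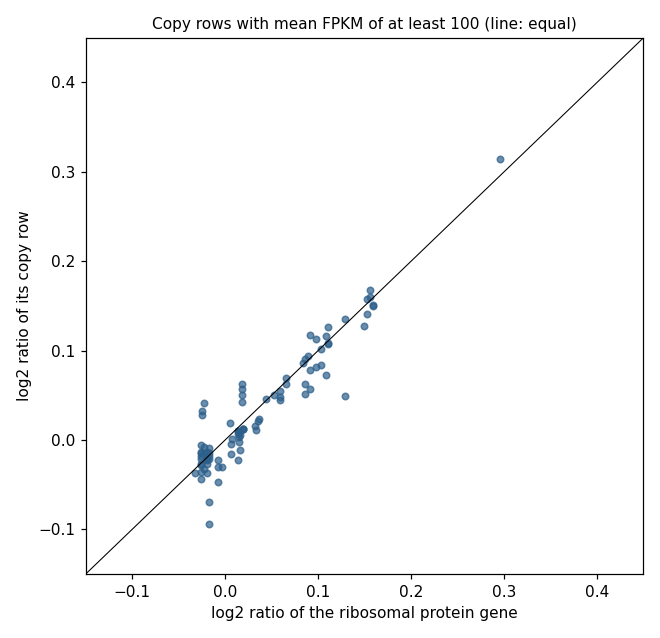
Log2 ratio (KO-labelled cells over WT-labelled cells) of 89 near-identical copies whose mean reached 100 FPKM, against that of the ribosomal protein gene each resembles, with the diagonal marking equal ratios. Points keep within 0.081 of the diagonal, and the pair at the upper right is Rpl37a with Gm4613.

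Adding each family's copies to its gene left the median log2 ratio of the members at 0.030, and members with no copy had a median of 0.026. In the small subunit the members with no copy had 0.089, against 0.042 over all its members. In all, 14 members were quantified in a locus shared with other genes, among them Rpl13 in a block of 75. Members alone in their locus had a median of 0.026.

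Other genes that make or regulate ribosomes were examined in 9 lists of 197 genes, with 4 genes in more than 1 list. Of 140 tested genes 1 was called (0.714%), and 4 had a Cuffdiff p under 0.05 in the authors' deposited table (2.86%), 2 higher and 2 lower in KO-labelled cells. Both shares can be read against 0.662% and 5.41% of all tested genes. The median log2 ratio over the 195 genes whose mean reached 1 FPKM was 0.0053, and 54.4% had the higher value in KO-labelled cells. For all genes of the table at that level the median was -0.029, and 42.3% were higher.

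A list of genes whose mRNAs carry TOP tracts, like those of most members, had a median of 0.045, with 12 of 19 higher. It holds translation factors and also other genes, such as Npm1, Nap1l1 and Hnrnpa1. Eef1d, the exchange factor subunit that reloads elongation factor 1A with GTP, was the called gene and rose. It had 276 FPKM in KO-labelled cells and 241 FPKM in WT-labelled cells, a log2 ratio of 0.20 with a standard error of 0.053, and a q-value of 0.0319 in the authors' deposited Cuffdiff table. The call was lost, at an adjusted p of 1.00, once standard errors below the median of genes of like level were raised to it. Eef1a1 itself had 11913 FPKM in KO-labelled and 12148 FPKM in WT-labelled cells with a failed test, Pabpc1, the poly(A) tail binding protein, had 5746 FPKM in KO-labelled and 5570.4 FPKM in WT-labelled cells, and Eef2, which moves the ribosome along the mRNA, had 767 FPKM in KO-labelled and 775 FPKM in WT-labelled cells. Among other initiation and elongation factors 22 of 31 were higher, with a median of 0.018. Eif4a2, a helicase of initiation, had 191 FPKM in KO-labelled cells and 179 FPKM in WT-labelled cells, with a Cuffdiff p of 0.0213 and a q-value of 0.627 in the authors' deposited table.

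Ribosomal proteins with other symbols had log2 ratios between -0.014 and 0.13. Fau, fused to a ubiquitin-like protein, had 407 FPKM in KO-labelled cells and 411 FPKM in WT-labelled cells. Gnb2l1, the scaffold protein Rack1, had 2189 FPKM in KO-labelled and 2148 FPKM in WT-labelled cells. The test of Gnb2l1 failed. Of the 6 genes in this list 5 had the higher value, beside 42.3% of all genes whose mean reached 1 FPKM. Of the 4 tested 0 were called, which is near the background of 0.662% of all tested genes. Rpl41 was not analysed here.

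Factors that assemble ribosomes divided about evenly, where 42.3% of all genes whose mean reached 1 FPKM were higher, with a median of -0.029. For the small subunit 23 of 42 genes were higher in KO-labelled cells, with a median of 0.0035, and Imp4, part of the small subunit processome, had the smallest p with 87.0 FPKM in KO-labelled and 81.6 FPKM in WT-labelled cells. For the large subunit 15 of 31 were higher, with a median of -0.0052. Ddx18, an RNA helicase of this pathway, had 126 FPKM in KO-labelled cells and 145 FPKM in WT-labelled cells, with a Cuffdiff p of 0.0458 and a q-value of 0.897 in the authors' deposited table. Proteins of the snoRNA particles that modify ribosomal RNA were higher for 5 of 11 genes. Nop56, a core protein of box C/D particles, had 677 FPKM in KO-labelled and 705 FPKM in WT-labelled cells. Chaperones and importers of ribosomal proteins were higher for 7 of 13 expressed genes, with a median of 0.058, and Bccip had 128 FPKM in KO-labelled and 110.2 FPKM in WT-labelled cells. The 4 lists held 33, 27, 8 and 8 tested genes in this order, and none was called. This is near the background of 0.662% of all tested genes.

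RNA polymerase I, which transcribes ribosomal RNA, and its factors had 7 of 18 genes higher and a median of -0.065. Polr1e, a subunit of the polymerase, had 37.0 FPKM in KO-labelled cells and 31.3 FPKM in WT-labelled cells, a log2 ratio of 0.24 with a standard error of 0.15. Regulators of ribosomal protein synthesis had 13 of 28 higher and a median of -0.0030. Mtor had 27.2 FPKM in KO-labelled and 25.05 FPKM in WT-labelled cells and Larp1 had 67.6 FPKM in KO-labelled and 69.2 FPKM in WT-labelled cells. Myc, which drives ribosome production, had 322 FPKM in KO-labelled cells and 310.3 FPKM in WT-labelled cells, and Trp53 had 312 FPKM in KO-labelled and 342 FPKM in WT-labelled cells, both with failed tests. Mdm4, an inhibitor of p53, had 34.7 FPKM in KO-labelled and 38.6 FPKM in WT-labelled cells, with a Cuffdiff p of 0.0276 and a q-value of 0.693 in the authors' deposited table.

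**Figure D4:**
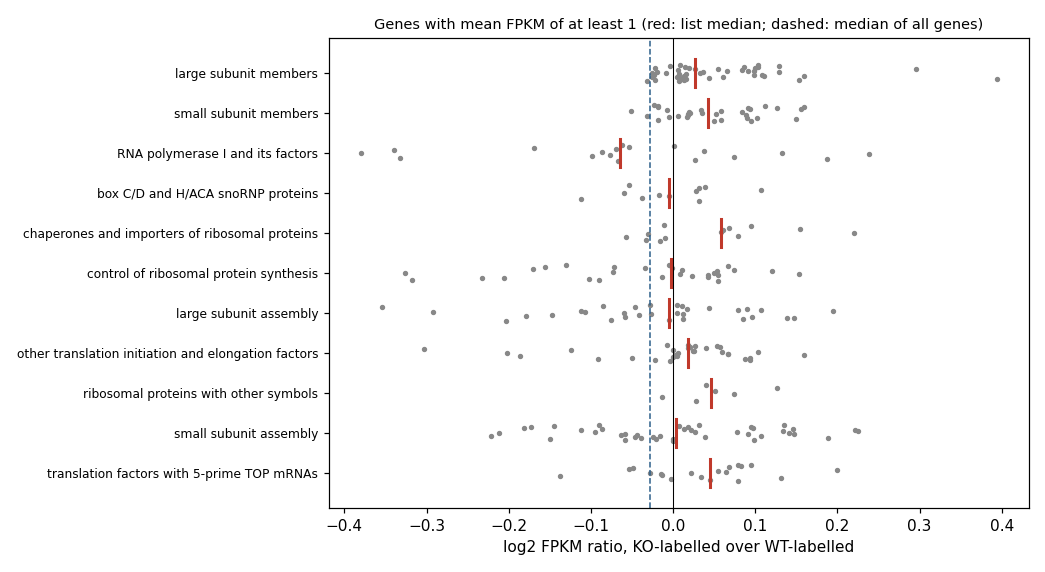
Log2 FPKM ratio (KO-labelled cells over WT-labelled cells) of each gene whose mean reached 1 FPKM, for the ribosomal protein genes of both subunits and 9 lists of other genes of ribosome synthesis and translation. The red bars are list medians, which run between -0.065 and 0.058, and the dashed line is the median of all genes at -0.029.

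Markers of the LSK gate were present in both groups, with Kit at 193 FPKM in KO-labelled cells and 202 FPKM in WT-labelled cells, Ly6a at 120 FPKM in KO-labelled and 88.9 FPKM in WT-labelled cells and Cd34 at 314 FPKM in KO-labelled and 316 FPKM in WT-labelled cells. The mature lymphocyte markers Cd3e, Cd8a and Ms4a1 were each at or under 0.254 FPKM. Markers of some other cells moved between the groups, and the call counts that follow can be read against 0.662% of all tested genes. Of 7 tested mast cell and basophil markers 4 were called higher in KO-labelled cells, and 6 of the 8 in the table passed 1 FPKM, with summed levels of 387 FPKM in KO-labelled cells and 156 FPKM in WT-labelled cells. Among B cell markers 4 of the 8 tested were called lower in KO-labelled cells, with sums over 9 genes of 59.2 FPKM in KO-labelled cells and 122 FPKM in WT-labelled cells. Of these 9 genes 8 had the lower value, while Cd79b had 27.8 FPKM in KO-labelled and 27.6 FPKM in WT-labelled cells. Of 8 tested erythroid markers 0 were called, which is near that share, and 6 of 8 had the higher value. Over all genes whose mean reached 1 FPKM, 42.3% were higher. The erythroid sums were 367 FPKM in KO-labelled and 271 FPKM in WT-labelled cells. Most of each sum was Car1, with 281 FPKM in KO-labelled and 187 FPKM in WT-labelled cells, while Tfrc and Hbb-b1 had the lower value in KO-labelled cells. The part of these other cells in the ribosomal protein values was not tested.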

How the data were processed

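RNA from 3 LSK samples labelled Tgif1-/- and 3 labelled wild type was sequenced, and the submitters' processing notes name TopHat and Cuffdiff, without versions, and hg19, a human build, although the identifiers are mouse. The mouse build of the positions was not given in the sources used here. Per the file headers, the authors' deposited table gives each gene a status, 1 FPKM value per group, a test statistic, a p-value and a q-value. In the deposited log2 fold change wild type is on top, and its sign was reversed for this report. The table has 1 value per group, so depth and spread between samples are unknown, and p-values rest on the authors' model error. Over 10683 tested genes with both values above 0, every deposited p was the two-sided normal value of the statistic within 0.001, so the log2 ratio over the statistic was taken as the implied standard error, and 95% intervals used 1.96 times it. The status column marks 10730 genes as tested, 3143 as failed, 8455 as having too few reads, 43 as low data and 10 as high data.

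Log2 ratios were taken without a pseudocount, on genes whose mean reached 1 FPKM. Copies were found by aligning GENCODE M21 transcripts, matched to 20701 of 22301 other genes by identifier, to members' coding sequences with blastn 2.17.0, and at least 50% of the copy's transcript had to align. Promoter windows came from RefSeq. Members, gene lists and alternatives were chosen with earlier results of these data known. Named members were the 5 highest of each subunit, the 5 smallest p, the 5 highest and 5 lowest ratios, and the anaemia and paralogue lists. Other genes named were called list members or the smallest p of a list. Some genes selected in this way are not reported or drawn here, though counts and sums include them. Further members and list genes were named for their role after values were seen. Strand is not stated, so antisense and overlapping genes cannot be told apart. Tables were handled with Python 3.11.15, pandas 2.3.3, numpy 2.4.6 and scipy 1.17.1, and the calculations were tested on simulated data. Alternatives were other q thresholds, a floor on standard errors within 20 expression bins, pseudocounts, filters, statuses, scalings and shared loci. Treatment of copies and leaving out Rpl13a were added after seeing the data.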

Additional observations from a re-analysis of the deposited data

How the results depend on the processing

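The count of called ribosomal protein genes was 0 at q thresholds of 0.01 and 0.1, with the error floor, with the 1 FPKM filter and when centred. A stricter threshold or a floor on errors cannot add a call, and the deposited q of tested members, 0.9999, lies far above 0.1. The thresholds and the floor therefore could not have changed this count. The median log2 ratio ran between 0.014 and 0.062 over all members, between 0.0070 and 0.060 in the large subunit and between 0.023 and 0.089 in the small subunit, over the alternatives run. The log2 ratio of the sums ran between 0.044 and 0.073 for the large subunit and between 0.055 and 0.059 for the small, and that of the share between 0.037 and 0.050. The lowest large subunit median, 0.0070, came with rescaling to equal FPKM totals, and the highest small subunit median, 0.089, with members that have copies left out. No spread between samples is known against which to judge these moves. Called genes among the other lists numbered 0 with the error floor, against 1 without it. Centring on the median of tested genes (-0.032) raises every ratio by the size of that median and so turns the direction of each member whose negative ratio is nearer 0 than that, among them Rpl4, Rpsa, Rplp0 and Rps16. Of the genes selected by the naming rule, 6 turned, to 0.0056 for Rpl21, 0.0086 for Rpl26, 0.0063 for Rpl30, 0.012 for Rpl31, 0.025 for Rps29 and 0.014 for Rps7. No paired analysis was possible because the table holds 1 value per group, and for the same reason no sample could be left out in turn. With no value per sample, whether 1 library sets a group's value cannot be told, and depth limits on single genes are unknown.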
